A study of Mus musculus with 3 samples.

Results

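The 7 genes Fabp6, Slc10a2, Slc51a, Slc51b, Nr1h4, Nr0b2 and Fgf15, which act in bile acid uptake and signalling in the ileum, were chosen by name from the 27998 genes of the deposited count tables. They were followed over the enterocyte groups of 3 single-cell RNA sequencing libraries, made from epithelial cells of the mouse small intestine that were sorted for the surface protein EpCAM. Each library came from 1 C57BL/6 mouse. WT was the wild type, LApc carried Lgr5-CreERT2;Apc fl/fl, and LApcL carried Lef1 fl/fl in addition to Lgr5-CreERT2;Apc fl/fl. All mice were given 2 doses of 2 mg tamoxifen at an age of 7 to 8 weeks, and cells were taken on day 21 for WT, day 29 for LApc and day 21 for LApcL. The study asked how the epithelium responds when Apc is deleted in stem cells with or without Lef1. The tamoxifen-inducible Cre was driven by Lgr5, a gene of crypt stem cells, so a given enterocyte may or may not descend from a recombined cell, and the libraries do not tell these apart. Whether the WT mouse carried the Cre was not given in the labels. With 1 library per genotype no difference between genotypes could be tested, and genotype cannot be told apart from mouse, library and, for LApc, day. All intervals are 95% intervals and cover counting error only.

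Bile acids are made in the liver, released into the duodenum with the bile, and reclaimed by enterocytes of the ileum. The apical sodium-dependent transporter Slc10a2 takes them up at the brush border, the cytosolic protein Fabp6 binds them, and the heteromeric transporter of Slc51a (OSTα) and Slc51b (OSTβ) releases them towards the portal blood. Nr1h4 is the nuclear bile acid receptor FXR. It pairs with a retinoid X receptor and is known to induce Fabp6, Slc51a, Slc51b, the co-repressor Nr0b2 (SHP) and the hormone Fgf15, which signals to the liver to lower bile acid synthesis.

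All 7 members are protein-coding genes on GRCm38. By the GENCODE annotation, Fabp6 (ENSMUSG00000020405) lies at chr11:43596049-43601540, Slc10a2 (ENSMUSG00000023073) at chr8:5083219-5105351, Slc51a (ENSMUSG00000035699) at chr16:32474504-32487879, and Slc51b (ENSMUSG00000053862) at chr9:65412714-65422955. Nr1h4 (ENSMUSG00000047638) lies at chr10:89454234-89533585, Nr0b2 (ENSMUSG00000037583) at chr4:133553376-133556536, and Fgf15 (ENSMUSG00000031073) at chr7:144896531-144900953. The first 5 genes named are on the minus strand, and Nr0b2 and Fgf15 are on the plus strand. Of the 7 members, 6 had a promoter window in RefSeq (GRCm38.p6), and Fgf15 had none. The windows were searched on both strands over the 250 bases before the start of transcription. The promoter of Fabp6 is shown because it alone among the members' windows holds close matches to the inverted repeat that FXR with its partner is known to bind. It is written 5′ to 3′ on the gene's own strand, and capitals mark the matches.

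Fabp6 promoter: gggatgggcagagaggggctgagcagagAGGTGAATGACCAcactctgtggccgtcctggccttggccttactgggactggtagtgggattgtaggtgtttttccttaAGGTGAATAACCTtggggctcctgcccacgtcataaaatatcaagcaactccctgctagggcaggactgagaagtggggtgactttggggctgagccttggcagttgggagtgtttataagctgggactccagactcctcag

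The Fabp6 window, chr11:43601563-43601812, holds 2 matches to an inverted repeat of AGGTCA with 1 base between the copies, with 2 of 12 letters mismatched in each. They are AGGTGAATGACCA, 222 to 210 bases before the start, and AGGTGAATAACCT, 142 to 130 bases before it. Of 32851 promoter windows of the same length over 27025 genes, 0.959% held a match this close, and no other member did. The TCF/LEF core CTTTGAA, which 4.46% of windows held, was found in Slc10a2 alone among the members, 28 to 22 bases before the RefSeq start, within the 64 bases of that window that the GENCODE gene covers. The related core CTTTGAT (3.21% of windows) and the NR5A2 element TCAAGGTCA (0.387%) had no match in the members' windows, and the direct repeat of AGGTCA with 1 base between, within 2 letters (3.24%) had 1, in Nr1h4. The GENCODE gene also covers 182 bases of the Slc51b window and all of the Nr1h4 window. The bases before those GENCODE starts were thus searched in part for Slc51b and not at all for Nr1h4. These matches describe the letters in the windows and nothing about binding.

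The libraries held between 11453 and 17388 cell barcodes and between 79696291 and 191509615 unique molecular identifiers (UMIs), each UMI standing for 1 captured RNA molecule. LApc stood apart: it was the shallowest library, and 17.7% of its barcodes had more than 20% mitochondrial UMIs, against 0.541% in WT and 2.38% in LApcL. After filtering, 10138, 9601 and 14394 cells of WT, LApc and LApcL were kept, with median UMI counts of 9713, 6132 and 10156. Pairs of libraries shared 214 to 318 barcodes, close to the 205 to 312 that independent draws from the barcode list would share. Apc transcripts stood at 16.6, 23.7 and 32.5 CPM (UMIs per 1000000 UMIs) over all kept cells of WT, LApc and LApcL. Lef1 stood at 0.124, 3.84 and 3.00 CPM, lower in LApcL than in LApc. Neither targeted transcript was at its lowest in the library labelled for its deletion. The study describes Lef1 as absent from normal intestine and induced in tumours, so WT is no baseline for its deletion. The libraries also differed in their mix of cells, given below. Reads of both genes come from the 3′ ends of transcripts, and whether they lie in the deleted parts was not given, so they do not check the labels.

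Enterocytes were called enterocyte-like from fixed marker genes, and the members themselves were left out of the clustering. There were 2839 such cells in WT, 3585 in LApc and 1746 in LApcL, and they split into 7 groups, each called here by a leading gene. Epcam, at 2031, 1718 and 1927 CPM, and Vil1, which encodes a brush border protein, at 669, 655 and 530 CPM, were present in the enterocyte-like cells of every library, and the leukocyte gene Ptprc was at 0.299 to 0.624 CPM. The haemoglobin gene Hba-a1 was uneven over these same cells. It stood at 0.233 CPM in WT (7 UMIs), 21.1 CPM in LApc (474 UMIs) and 122 CPM in LApcL (1844 UMIs). In the groups named ileal below, Hba-a1 stood at 0.304, 0.168 and 1.56 CPM, on 3, 1 and 7 UMIs. A Tmigd1-led group (333, 475 and 236 cells) had all 20 genes of a distal enterocyte list and all 6 genes of a villus tip list raised over the other enterocytes. A Reg3g-led group (581, 520 and 293 cells) had 4 of the 20 distal genes and 3 of 6 villus bottom genes raised. These were named ileal, and together they made up 32.2% (30.5 to 33.9) of WT, 27.8% (26.3 to 29.3) of LApc and 30.3% (28.1 to 32.5) of LApcL enterocytes. Lct-led, Cybrd1-led and Gstm3-led groups were named proximal, of which the Lct-led one had 19 of 20 proximal and also 10 of 20 distal genes raised. A Gsdmc4-led and a Dmbt1-led group had too few raised markers for a name. The level of a member in a group is the sum of its UMIs over the cells, per 1000000 of all their UMIs.

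The ileal groups did not hold cells of 1 kind. Summed over the 20 proximal genes, their level was 4982, 17120 and 10389 CPM in WT, LApc and LApcL, beside 6237, 7389 and 5138 CPM for the 20 distal genes. The share of ileal cells with more proximal-list than distal-list UMIs was 30.9%, 55.8% and 53.7%. Apoa4, an apolipoprotein gene of the proximal list, stood at 1059, 7610 and 4301 CPM in these cells, Rbp2 (retinol binding) at 1054, 4192 and 2970 CPM, and Apoc3 at 473, 1712 and 739 CPM. Of the distal list, Muc3 was at 1071, 1408 and 711 CPM, Clec2h at 898, 1708 and 1042 CPM, and Enpep at 567, 653 and 452 CPM. Proximal Lct-led cells held Muc3 at 590, 1553 and 662 CPM, Clec2h at 905, 1488 and 1769 CPM and Enpep at 504, 640 and 541 CPM. None of these 3 genes was thus higher in ileal than in Lct-led cells in every library. In the ileal groups the median log2 ratio to WT over the distal list was -0.01 in LApc and -0.35 in LApcL. Of its 20 genes, 1 and 2 were at least 2-fold lower and 1 and 0 higher. Over the proximal list the median was 0.52 and 0.02, with 7 and 3 of 20 higher and 0 and 2 lower. Of genes with a mean of at least 10 CPM, 1.95% and 1.33% were lower and 2.73% and 2.72% higher. Over the tip list the median was 1.08 and 0.81, and over the bottom list -0.13 and -0.70. By group, the distal median was -0.52 and -0.58 in Reg3g-led and 0.17 and -0.19 in Tmigd1-led cells. The proximal one was 0.42 and -0.18, and 0.60 and 0.15. The tip one was 0.02 and -0.95, and 1.18 and 0.94, and the bottom one 0.06 and -0.52, and -0.78 and -1.48. Adenoma transcripts (Sox17, Msx1, Nkd1, Notum, Prox1, Wif1, Dkk2, Dkk3 and Lef1) summed to 1.93, 17.2 and 149 CPM in the ileal groups, beside 1493 and 935 CPM in a Wnt/TA cluster (cells with Wnt target and dividing-cell genes) that held 1251 cells of LApc, 8622 of LApcL and 4 of WT. The part of these shifts in the members' differences was not tested, other than by the values of cells with more distal-list UMIs given below.

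Fabp6, the cytosolic bile acid binding protein, was lower in both mutant libraries in both ileal groups and in the Gsdmc4-led cells. In the Tmigd1-led cells its level was 49275 CPM in WT, 13414 in LApc and 14477 in LApcL. In the Reg3g-led cells it was 42008, 16566 and 9243 CPM. WT was the highest of the libraries in both ileal groups, and Poisson intervals of the libraries did not overlap. Over both groups together the level was 44364, 15449 and 11073 CPM, a log2 ratio to WT of -1.52 (-1.53 to -1.51) for LApc and -2.0 (-2.02 to -1.99) for LApcL. LApc lay nearer to WT than LApcL did in this sum. The ratio of LApcL to LApc depended on the group, at 0.11 (0.08 to 0.14) in Tmigd1-led and -0.84 (-0.86 to -0.82) in Reg3g-led cells, and this difference was not tested.

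Outside the ileal groups the order of Fabp6 levels was alike in the libraries. The unnamed Gsdmc4-led group came next, at 16416 CPM in WT, 6626 in LApc and 1219 in LApcL. Lct-led cells followed at 760, 277 and 147 CPM. The remaining groups lay close to each other, with Cybrd1-led cells at 522, 222 and 40.9 CPM, Dmbt1-led at 341, 220 and 49.0 CPM and Gstm3-led at 340, 172 and 39.7 CPM. Intervals of Dmbt1-led and Gstm3-led cells overlapped in WT, those of Cybrd1-led and Dmbt1-led cells in LApc, and those of all 3 in LApcL. These low levels were near those of cell types that do not take up bile acids: Paneth-like cells held 369, 459 and 70.4 CPM, tuft-like cells 624, 319 and 109 CPM, and goblet-like cells 1346, 383 and 193 CPM. In droplet libraries free RNA gives such counts, so levels of Fabp6 at or below these were read as background.

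**Figure D1:**
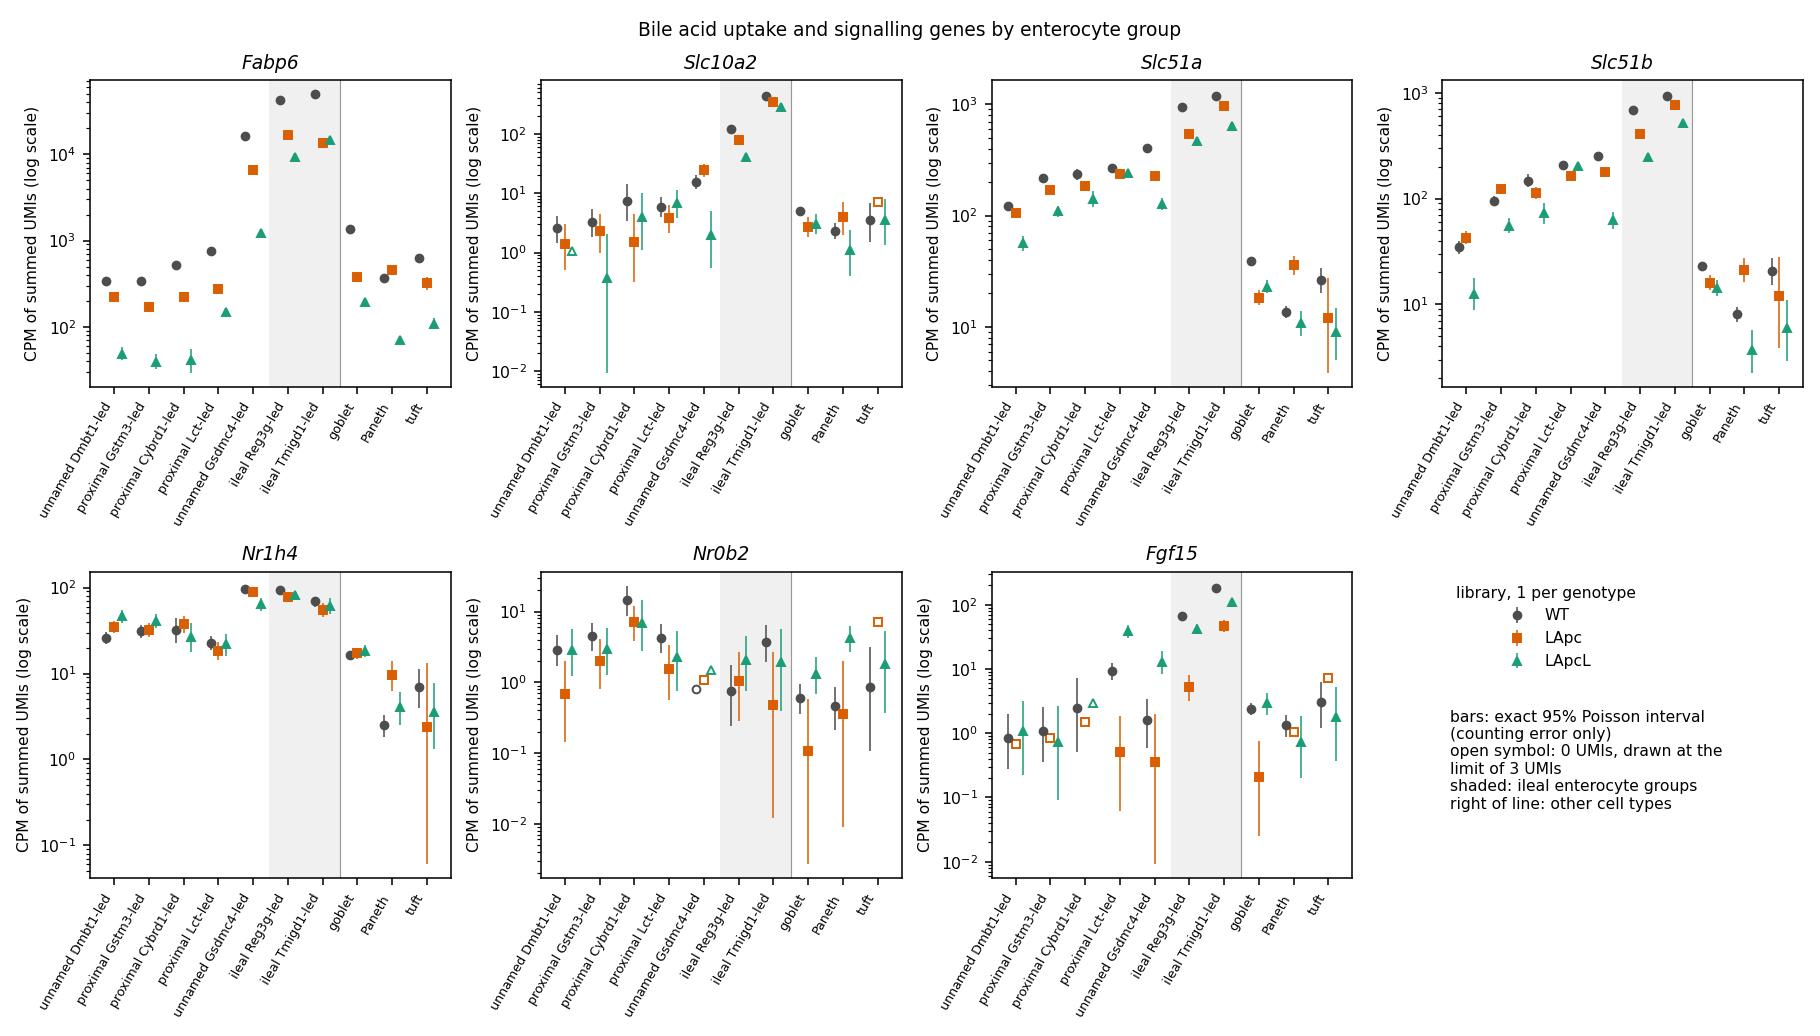
Level of each member (CPM of summed UMIs, log axis) in 7 enterocyte groups and 3 other cell types, 1 symbol per library, with exact Poisson intervals as bars and open symbols at the limit of 3 UMIs where none was counted. Fabp6, Slc10a2 and Fgf15 are highest in the shaded ileal groups, Slc51a and Slc51b are also present in the proximal groups, Nr1h4 is present in all enterocyte groups, and Nr0b2 stays below 15 CPM.

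Slc10a2, which imports bile acids, was highest in the ileal groups, and among them in the Tmigd1-led cells. There its level was 441 CPM in WT, 339 in LApc and 282 in LApcL. In Reg3g-led cells it was 122, 80.0 and 40.1 CPM. The order WT, LApc, LApcL held in both groups without overlap of the intervals. Over both groups the level was 225, 172 and 125 CPM. The log2 ratio to WT was -0.39 (-0.50 to -0.28) for LApc, and for LApcL it was -0.85 (-0.99 to -0.72). The Tmigd1-led level was 74.0-fold that of Lct-led cells in WT, 88.0-fold in LApc and 41.2-fold in LApcL. In the proximal and Dmbt1-led groups the level stayed between 0 and 7.37 CPM, beside 2.74 to 5.02 CPM in goblet-like cells. Gsdmc4-led cells were at 15.4, 24.2 and 1.99 CPM, on 58, 67 and 4 UMIs. Of all Slc10a2 UMIs in kept cells, 83.5% in WT, 77.5% in LApc and 54.4% in LApcL were in ileal enterocytes. These made up 9.02%, 10.4% and 3.68% of the kept cells. Another 37.5% in LApcL (385 UMIs) were in that Wnt/TA cluster of 8622 cells, 59.9% of the kept cells, at 3.66 CPM. Per 1000 Fabp6 UMIs of the same cells, that cluster held 91.1 Slc10a2 UMIs in LApcL, beside 15.8 in goblet-like, 15.7 in Paneth-like and 11.3 in ileal cells of that library, and 57.6 in LApc, beside 7.16 in goblet-like and 11.1 in ileal cells. Tuft-like, enteroendocrine-like, Lct-led and Cybrd1-led cells of LApcL held 33.0, 26.3, 46.4 and 97.6, on 6, 6, 15 and 4 Slc10a2 UMIs. Gstm3-led cells of LApcL held 9.35 on 1 UMI, and Dmbt1-led cells had no Slc10a2 UMI.

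Slc51a and Slc51b encode the subunits of the export transporter, and their levels ran in parallel. In Tmigd1-led cells Slc51a was at 1194 CPM in WT, 973 in LApc and 637 in LApcL, and Slc51b at 938, 761 and 524 CPM. In Reg3g-led cells Slc51a was at 953, 542 and 472 CPM, and Slc51b at 689, 406 and 249 CPM. Both genes were thus highest in WT and lowest in LApcL in each ileal group. Over both groups the log2 ratio to WT was -0.57 (-0.62 to -0.52) for Slc51a and -0.53 (-0.59 to -0.47) for Slc51b in LApc, and -0.96 (-1.03 to -0.90) and -1.16 (-1.24 to -1.08) in LApcL. Across 38 units, each a library's cells of 1 group with at least 50 cells, Pearson's r of log2(CPM + 1) between the subunits was 0.98. These units share libraries and depth, and the value is a description.

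Unlike Slc10a2, the exporter subunits were well above background in proximal cells. In Lct-led cells Slc51a was at 268, 237 and 241 CPM and Slc51b at 209, 165 and 201 CPM in WT, LApc and LApcL. Paneth-like cells held 13.7, 35.7 and 10.8 CPM of Slc51a and 8.08, 21.2 and 3.67 CPM of Slc51b. The libraries lay closer together in Lct-led than in ileal cells, with a log2 ratio of LApcL to WT of -0.15 (-0.30 to -0.01) for Slc51a and -0.05 (-0.22 to 0.11) for Slc51b. In the other proximal groups LApcL was further below WT, at -0.99 (-1.18 to -0.80) for Slc51a and -0.80 (-1.07 to -0.52) for Slc51b in Gstm3-led cells, and at -0.73 (-1.03 to -0.44) and -1.03 (-1.44 to -0.63) in Cybrd1-led cells. Ileal enterocytes held 57.0%, 52.1% and 49.1% of all Slc51a UMIs and 64.1%, 55.6% and 54.1% of Slc51b UMIs. With each cell thinned to 3000 UMIs, Slc51b was detected in 89.6% (85.1 to 93.2), 80.3% (74.7 to 85.2) and 75.8% (67.3 to 83.0) of Tmigd1-led cells with a Slc51a UMI. In Tmigd1-led cells without one the shares were 21.7% (13.8 to 31.6), 40.7% (29.9 to 52.2) and 28.7% (20.1 to 38.6). In Lct-led cells of WT the same shares were 45.3% and 41.2%, and their intervals overlapped.

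Nr1h4, the receptor FXR, differed least between libraries over the ileal groups among the 6 members with more than a few UMIs there. Tmigd1-led cells held 68.9 CPM in WT, 55.5 in LApc and 61.2 in LApcL, and Reg3g-led cells 94.3, 77.9 and 80.9 CPM. Over both groups the level was 86.0, 70.0 and 74.0 CPM, with log2 ratios to WT of -0.30 (-0.47 to -0.13) and -0.22 (-0.40 to -0.03). LApcL and LApc could not be told apart, at 0.08 (-0.13 to 0.29) by total UMIs and -0.12 after TMM scaling. Levels were of like size in the Gsdmc4-led cells, at 95.04, 88.5 and 64.2 CPM, and lower in Lct-led cells, at 22.8, 18.3 and 21.9 CPM. The receptor was also counted in goblet-like cells (16.4, 17.2 and 18.3 CPM) and in dividing cells of the other Wnt/TA cluster (13.9, 21.8 and 15.6 CPM), above tuft-like cells (6.95, 2.38 and 3.60 CPM). Of its UMIs, 30.6%, 24.4% and 23.2% were in ileal enterocytes, which made up 9.02%, 10.4% and 3.68% of the kept cells.

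Nr0b2, the co-repressor SHP, was close to the limit of detection in ileal enterocytes. Their sums held 17 UMIs in WT, 5 in LApc and 9 in LApcL, or 1.73, 0.841 and 2.01 CPM. The log2 ratios to WT, -1.04 (-2.83 to 0.46) and 0.22 (-1.13 to 1.46), both had intervals that span 0, so no difference was detectable at this depth. Gsdmc4-led cells held no Nr0b2 UMI in any library, which allows up to 0.796, 1.08 and 1.49 CPM. The highest enterocyte level was in Cybrd1-led proximal cells, at 14.7, 7.09 and 6.98 CPM on 18, 14 and 7 UMIs. In LApcL, 86.9% of all Nr0b2 UMIs (787) were in the Wnt/TA cluster of 8622 cells, 59.9% of the kept cells, at 7.49 CPM.

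Fgf15, the hormone made in the ileum, had a pattern of its own, lowest in LApc. Tmigd1-led cells held 183 CPM in WT, 47.0 in LApc and 108 in LApcL. Reg3g-led cells held 65.9, 5.21 and 41.8 CPM. In both ileal groups LApcL lay between the other libraries, and no intervals overlapped. Over both groups the level was 104, 20.02 and 65.1 CPM on 1023, 119 and 292 UMIs. The log2 ratio was -2.37 (-2.66 to -2.10) for LApc over WT, -0.67 (-0.87 to -0.48) for LApcL over WT and 1.70 (1.39 to 2.02) for LApcL over LApc. Per 1000 Fabp6 UMIs, Tmigd1-led cells held 3.71 Fgf15 UMIs in WT, 3.50 in LApc and 7.49 in LApcL. Reg3g-led cells held 1.57, 0.315 and 4.53, so of the ileal groups LApc was well below WT by this measure in Reg3g-led cells alone.

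Fgf15 was also counted in Lct-led and Gsdmc4-led cells, and in these LApcL was the highest library. The Cybrd1-led, Gstm3-led and Dmbt1-led groups held 0 to 5 Fgf15 UMIs per library, too few for an order. In Lct-led proximal cells it was at 9.36 CPM in WT (44 UMIs), 0.514 in LApc (2 UMIs) and 38.4 in LApcL (84 UMIs). In the Gsdmc4-led cells it was at 1.59, 0.361 and 12.9 CPM, on 6, 1 and 26 UMIs. The log2 ratio of LApcL to WT was thus 2.03 (1.49 to 2.60) in Lct-led and 3.02 (1.71 to 4.59) in Gsdmc4-led cells, with the opposite sign to the ileal groups, a difference that was not tested. The Lct-led cells were not purely proximal: the distal list summed in them to 4776, 5700 and 6075 CPM, highest in LApcL, beside 37461, 51561 and 32421 CPM for the proximal list. The part of this in the Fgf15 levels was not tested. Goblet-like cells held 2.40, 0.211 and 2.94 CPM and Paneth-like cells 1.32, 0 and 0.735 CPM. Per 1000 Fabp6 UMIs of the same cells, Lct-led cells of LApcL held 260 Fgf15 UMIs, beside 15.3 in goblet-like and 10.4 in Paneth-like cells of that library. Lct-led cells of WT held 12.3 and those of LApc 1.86. After thinning, an Fgf15 UMI was found in 2.49% (1.33 to 4.22), 0 of 688 and 7.396% (4.75 to 10.9) of Lct-led cells of WT, LApc and LApcL, while 6.13%, 0.259% and 13.3% had one before it.

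**Figure D2:**
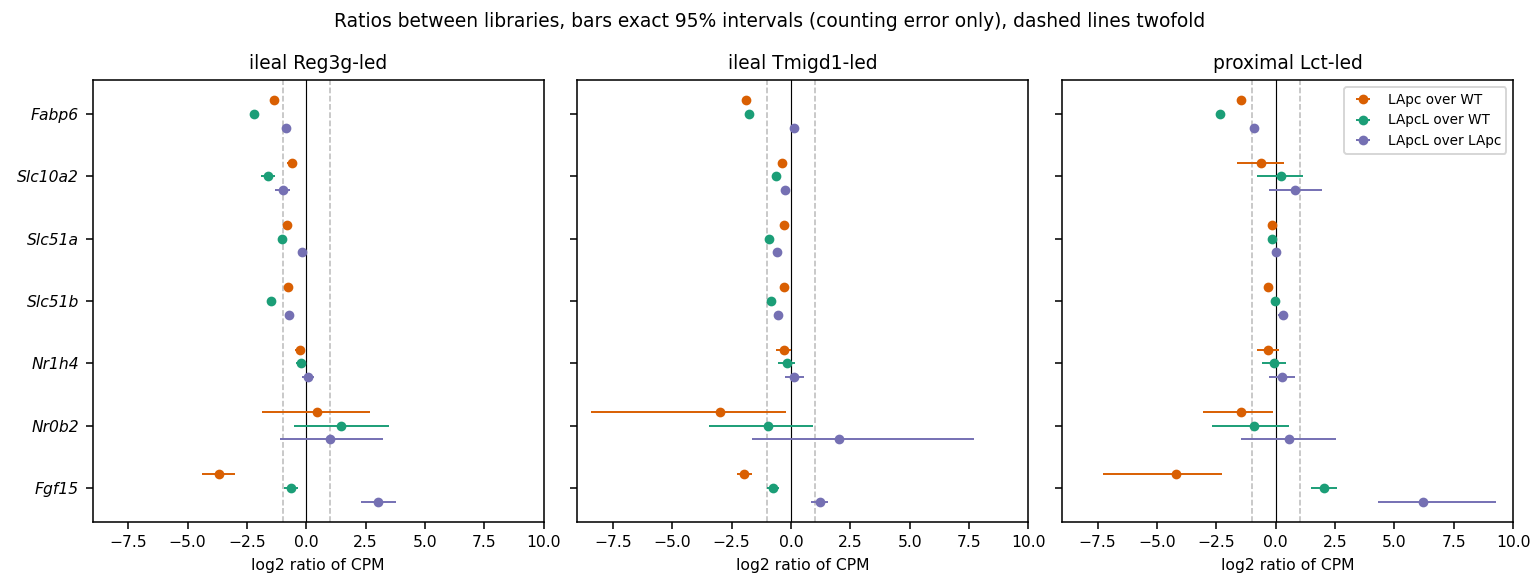
Log2 ratio of CPM between libraries (x axis) for each member (y axis) in Reg3g-led, Tmigd1-led and Lct-led enterocytes, with exact intervals as bars, 1 colour per comparison and dashed lines at a 2-fold difference. Ratios to WT lie at or below 0 for Fabp6, Slc10a2, Slc51a and Slc51b in both ileal groups, whereas the Fgf15 ratio of LApcL to WT lies below 0 in the ileal groups and at 2.03 in Lct-led cells.

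By the number of members past a 2-fold difference in the ileal groups, 3 of 7 were lower in LApc than in WT (Fabp6, Fgf15 and Nr0b2, the last on 17 and 5 UMIs) and none was higher. Nr0b2 was within 2-fold after TMM scaling (-0.99) and in cells chosen by distal-list UMIs (-0.80), and was higher in LApc after thinning (0.58). The background was 1.95% of 6769 genes with a mean of at least 10 CPM, a minimum that 6 members passed and Nr0b2 did not. Among those 6 members, 2 were lower. In LApcL against WT 2 of 7 were lower (Fabp6 and Slc51b) and none higher, over a background of 1.33%. In LApcL against LApc 2 of 7 were higher (Fgf15 and Nr0b2) and none lower, over backgrounds of 4.23% and 1.02%, and 1 of the 6 that passed the minimum was among them. The median log2 ratio of these 6 members was -0.55, -0.91 and -0.43 in the 3 comparisons, beside -0.07, 0.08 and 0.10 over all genes tested. Each pair of comparisons shares a library. TMM scaling moved the log2 ratios by 0.04 for LApc over WT, -0.16 for LApcL over WT and -0.21 for LApcL over LApc. Under it Slc10a2 (-1.01) and Slc51a (-1.12) were also past 2-fold lower in LApcL than in WT, and no share over all genes was taken under it.

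The ileal groups did not give the same counts. In Reg3g-led cells 4 of the 6 members that passed the minimum were at least 2-fold lower in LApcL than in WT (Fabp6, Slc10a2, Slc51a and Slc51b), over a background of 2.32%. In Tmigd1-led cells 1 was (Fabp6), over 2.55%. Of the 20 distal-list genes, 4 were at least 2-fold lower in LApcL than in WT in Reg3g-led cells and 0 in Tmigd1-led cells. For LApc against WT the count of members was 2 in each group (Fabp6 and Fgf15), but the background was 11.9% in Tmigd1-led and 1.72% in Reg3g-led cells. For LApcL over LApc, Fgf15 was at least 2-fold higher in each, over 13.8% and 3.09%. Tmigd1-led cells of LApc were also the shallowest, with a median of 3922 UMIs, against 8876 in WT and 6240 in LApcL, and the part of depth in these counts was not tested. All of the 4 uptake and export genes had a negative log2 ratio to WT in both groups and both mutant libraries.

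Cell by cell, the share of ileal cells rich in Fabp6 was also largest in WT. A cell was called Fabp6-rich here when Fabp6 made up at least 1% of its UMIs. In Reg3g-led cells 65.7% of WT, 45.4% of LApc and 25.3% of LApcL cells were Fabp6-rich, and in Tmigd1-led cells 61.3%, 29.5% and 30.9%. The median cell of the Tmigd1-led group held 35256, 1967 and 311 CPM, and the cell at the 90th percentile 112146, 34333 and 49478 CPM. In Gsdmc4-led cells the Fabp6-rich shares were 44.7%, 27.2% and 4.52%, and in Lct-led cells 0.958%, 0.130% and 0. Thinned to 3000 UMIs, 91.0% (87.4 to 93.8), 82.5% (77.9 to 86.5) and 58.7% (51.9 to 65.2) of Tmigd1-led cells had a Fabp6 UMI, with 0, 155 and 11 shallower cells left out. Tuft-like cells, thinned alike, had one in 73.4%, 61.6% and 21.9%, so presence of a UMI alone does not mark a Fabp6-expressing cell. Before thinning the shares were 98.2%, 84.8% and 65.3% in Tmigd1-led and 98.5%, 82.6% and 34.1% in tuft-like cells.

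**Figure D3:**
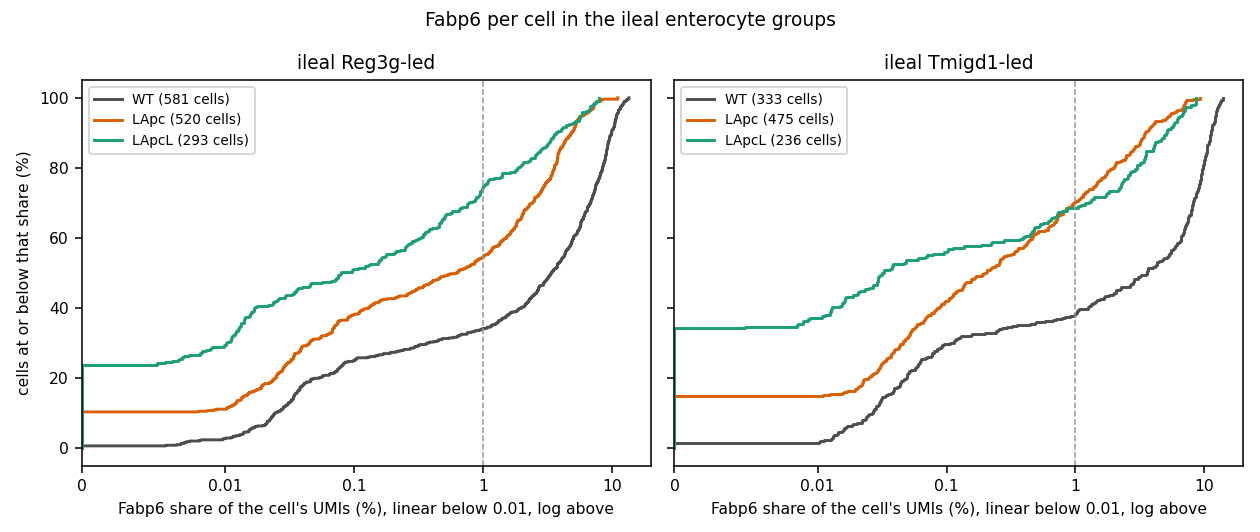
Share of cells (y axis, %) at or below a given Fabp6 share of the cell's UMIs (x axis, %, linear below 0.01 and log above) in the ileal groups, 1 curve per library, with a dashed line at 1%. At that line the curves stand at the share of cells that are not Fabp6-rich, lowest for WT in both groups, with LApc and LApcL close together in Tmigd1-led cells and apart in Reg3g-led cells.

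Enterocytes were also split by region cell by cell. Of enterocyte-like cells with more distal-list than proximal-list UMIs, which numbered 886, 569 and 334 in the libraries, the Fabp6-rich share was 78.4% (75.6 to 81.1), 64.3% (60.2 to 68.3) and 42.8% (37.4 to 48.3). It was 2.13%, 3.15% and 1.01% in cells with more proximal-list UMIs. In the sums of these distal-list cells Fabp6 stood at 48862, 23133 and 16528 CPM, Slc51a at 1056, 872 and 657 CPM and Slc51b at 779, 614 and 394 CPM. Their levels were still highest in WT and lowest in LApcL. Slc10a2 was at 222, 237 and 180 CPM and Nr1h4 at 102, 110 and 93.2 CPM, so LApc was not below WT for these by this definition. Fgf15 was at 97.4, 26.1 and 67.1 CPM, again lowest in LApc.

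The other members were compared within Fabp6-rich cells, a split that uses Fabp6 itself and says nothing on it. The fixed cut did not choose cells of like Fabp6 level in each library. Fabp6-rich cells held Fabp6 at 77644, 33941 and 42990 CPM in the Tmigd1-led group and 62157, 34957 and 35078 CPM in the Reg3g-led group. Levels on each side of the cut are thus a description, and the part of the cut in them was not tested. In Fabp6-rich Tmigd1-led cells (204 in WT, 140 in LApc and 73 in LApcL) Slc10a2 was at 686, 556 and 702 CPM, and Slc51a at 1742, 1504 and 1472 CPM. Slc51b was at 1375, 1229 and 1063 CPM, and Nr1h4 at 96.0, 93.5 and 126 CPM. Intervals of WT and LApcL overlapped for Slc10a2 and those of all libraries for Nr1h4, while Slc51a and Slc51b were still highest in WT. Fgf15 was at 275, 90.9 and 182 CPM, with LApc still lowest and no overlap of the intervals. In the Fabp6-poor Tmigd1-led cells (129, 335 and 163) Slc10a2 was at 25.3, 218 and 84.4 CPM, Slc51a at 263, 674 and 245 CPM, Slc51b at 196, 497 and 270 CPM and Fgf15 at 26.2, 22.3 and 74.1 CPM. Here the uptake and export genes were highest in LApc, and Fgf15 in LApcL. The distal list summed in these cells to 4542, 10974 and 6067 CPM and the proximal list to 14259, 51652 and 30019 CPM, both also highest in LApc, and their part in these levels was not tested. Fabp6-poor Reg3g-led cells (199, 284 and 219) did not show this order, with Slc51a at 420, 312 and 316 CPM, Slc51b at 284, 260 and 178 CPM and Slc10a2 at 14.0, 13.8 and 21.4 CPM.

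Fabp6-rich Reg3g-led cells (382, 236 and 74) gave another order. Slc51a was at 1218, 821 and 988 CPM, Slc51b at 890, 583 and 484 CPM and Slc10a2 at 176, 160 and 102 CPM. WT was the highest library for each of them, but its interval for Slc10a2 overlapped that of LApc. Nr1h4 was at 116, 113 and 117 CPM, level across the libraries within its intervals. Fgf15 was at 90.7, 10.4 and 72.5 CPM, with overlapping intervals of WT and LApcL and a lower level in LApc.

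**Figure D4:**
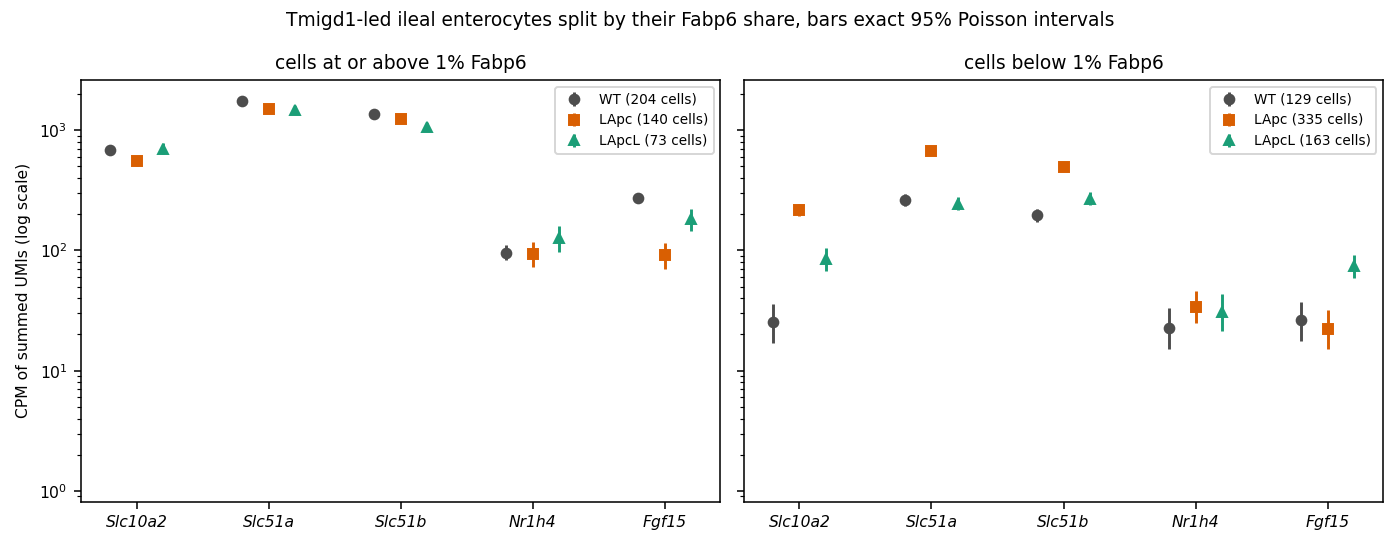
Level of Slc10a2, Slc51a, Slc51b, Nr1h4 and Fgf15 (CPM of summed UMIs, log axis) in Tmigd1-led cells with at least 1% Fabp6 (left) and below 1% (right), 1 symbol per library, bars exact Poisson intervals. In Fabp6-rich cells the libraries lie close together except for Fgf15, which is at 90.9 CPM in LApc, and in Fabp6-poor cells the transporter genes are highest in LApc.

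In each library Fgf15 was detected more often in cells with a UMI of the importer, with intervals apart in WT alone. In thinned Tmigd1-led cells, an Fgf15 UMI was found in 38.5% (31.0 to 46.5) of WT cells with a Slc10a2 UMI and in 16.9% (11.6 to 23.3) of those without. The shares were 13.01% (8.02 to 19.6) and 4.60% (2.01 to 8.86) in LApc, and 28.6% (19.2 to 39.5) and 12.8% (7.74 to 19.4) in LApcL. With and without an Nr1h4 UMI, they were 38.7% and 24.7% in WT, 7.5% and 8.57% in LApc, and 29.4% and 16.8% in LApcL. The intervals of each of these Nr1h4 pairs overlapped. Over all thinned Tmigd1-led cells Fgf15 was detected in 27.3% (22.6 to 32.5), 8.44% (5.63 to 12.0) and 18.7% (13.8 to 24.4) of cells, beside 0.772%, 0 of 73 and 0.662% of tuft-like cells. Unthinned, the shares were 49.5%, 10.9% and 28.0%. Slc10a2 was detected in 48.3%, 45.6% and 37.3% of thinned Tmigd1-led cells, with overlapping intervals, and in 0.772%, 0 of 73 and 1.32% of tuft-like cells.

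The genes most like each member over the 38 units, among 5162 genes with at least 50 CPM in 1 unit, were sought by Pearson's r of log2(CPM + 1). Fabp6 went with Saa1 (0.84), Slc5a8 (0.80) and Mep1a (0.80), and Slc10a2 with Saa1 (0.91), Slc25a48 (0.89) and Tmigd1 (0.88). Slc51a went with Enpep (0.97), Slc7a9 (0.96) and Kbtbd11 (0.95), and Slc51b with Dpep1 (0.96), Mep1a (0.95) and Kbtbd11 (0.95). Nr1h4 was most like Cdkn2b (0.91), Abat (0.91) and Il17rc (0.90), Nr0b2 like S100g (0.78), 2210019I11Rik (0.76) and Ckb (0.75), and Fgf15 like Nos2 (0.89), Slc34a2 (0.86) and Fam151a (0.86). Between members, r was 0.86 for Fabp6 with Slc10a2, 0.79 for Slc10a2 with Fgf15 and -0.39 for Fabp6 with Nr0b2.

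Further genes of the pathway came from a list of 33, of which 21 reached 10 CPM in an enterocyte group and 6 had no UMI in any enterocyte-like cell (Nr1h5, Rxrg, Cyp7a1, Cyp8b1, Slc10a1 and Slco1a4). Cyp7a1 and Cyp8b1 are enzymes of bile acid synthesis and Slc10a1 is the hepatocyte importer, all liver genes. Among the 21, 3 were at least 2-fold higher in LApc than in WT ileal cells and 2 lower, over backgrounds of 2.73% and 1.95%. In LApcL against WT 1 was higher and 2 were lower, over 2.72% and 1.33%, and 18 lay within 2-fold. The backgrounds cover genes with a mean of at least 10 CPM in ileal cells, a minimum that the 21 were not held to. Cyp3a11, a detoxifying enzyme that also hydroxylates bile acids, was highest in LApc, at 32.5 CPM in WT, 246 in LApc and 55.5 in LApcL. Abcc2, an apical exporter of conjugates, was at 44.0, 111 and 53.3 CPM. Both were higher still in proximal cells of the same libraries: in Lct-led cells Cyp3a11 was at 518, 1071 and 358 CPM and Abcc2 at 103, 300 and 98.6 CPM. The third, Fgfr4, the receptor of Fgf15, was counted with 7, 9 and 23 UMIs in ileal cells. Fgfr4 was thus below the minimum of the backgrounds, and it was also the 1 gene higher in LApcL.

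Nos2, an inducible nitric oxide synthase known as an FXR-responsive gene of the ileum, was lower in both mutant libraries, at 88.6 CPM in WT, 34.7 in LApc and 29.4 in LApcL. Its log2 ratios to WT were -1.35 (-1.58 to -1.13) and -1.59 (-1.86 to -1.32). Ang4, the other gene past 2-fold lower, is a Paneth cell gene and was at 78.4, 31.5 and 30.8 CPM in ileal cells and at 9744, 5656 and 7220 CPM in Paneth-like cells. Of the transcription factors of the list, Hnf4a was at 229, 236 and 205 CPM, Gata4 at 23.4, 23.9 and 25.6 CPM, and Rxra, a partner of FXR, at 38.5, 47.1 and 38.4 CPM. These lay within 2-fold of WT in both libraries. Nr5a2 was at 30.7, 22.04 and 24.8 CPM and Vdr, the vitamin D receptor, at 165, 111 and 119 CPM. Malrd1, which is known to affect Fgf15 output, was at 74.1, 65.8 and 66.9 CPM. The sterol transporters Npc1l1 (248, 322 and 193 CPM), Abcg5 (77.1, 99.4 and 74.9 CPM) and Abcg8 (76.9, 113 and 80.7 CPM) were highest in LApc.

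**Figure D5:**
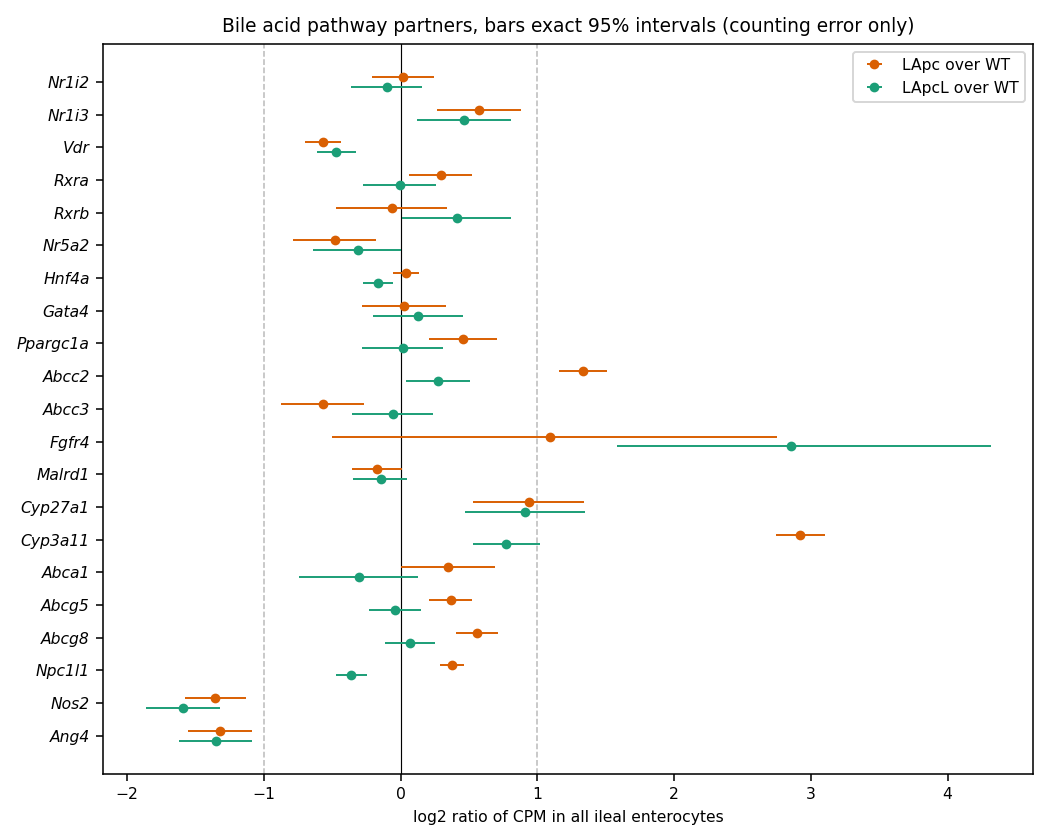
Log2 ratio of CPM to WT in all ileal enterocytes for the 21 further genes of the pathway that reached 10 CPM in an enterocyte group, LApc and LApcL in different colours, bars exact intervals and dashed lines at a 2-fold difference. Cyp3a11 (2.92) and Abcc2 (1.33) lie to the right in LApc, Nos2 and Ang4 lie to the left in both, and Fgfr4 has wide intervals.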

How the data were processed

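Single-cell libraries of WT, LApc and LApcL mice (1 each) were analysed from the UMI count matrices deposited by the authors. Per the submitters' processing notes these were made with Cell Ranger 2.1.1 on mm10 (GRCm38), with a 3′ kit whose version (v2 or v3) was not given per sample. Counts were used as deposited, without normalization.

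Cells between the 1st and 99th percentile of genes per cell with at most 20% mitochondrial UMIs were kept, and the barcodes with the highest Scrublet scores (scanpy 1.11.5) were removed as doublets at 0.8% per 1000 barcodes (1023 in WT, 1135 in LApc and 2326 in LApcL). Libraries were integrated in Seurat 5.3.0 (R 4.3.3) with 20 principal components and clustered at resolution 0.2, leaving out the members and their pathway partners. A class or region name needed 3 markers raised 1.5-fold over the other cells. Enterocyte-like cells were clustered again into 7 groups, named by region from lists of 20 proximal and 20 distal genes. Levels are summed UMIs per 1000000 UMIs (CPM) with exact Poisson intervals, ratios have exact conditional binomial intervals and shares have Clopper-Pearson intervals. A count of 0 was read as allowing 3 UMIs. A 2-fold ratio was counted as a difference, over genes with a mean of at least 10 CPM. Shares of cells with a UMI were taken after thinning to 3000 UMIs. TMM factors came from edgeR 4.0.16, for scaling only. The ratios and their intervals were tested on simulated counts. Filtering, doublet removal, clustering, naming and TMM scaling were not.

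All members were named, with pathway partners at 10 CPM or more in an enterocyte group and the 3 highest genes of the distal and proximal lists. Of the partner list, 1 gene is not reported here. The members and lists were chosen with earlier results of these data known. Alternatives were 7 chosen at the outset and 3 chosen after seeing the data.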

Additional observations from a re-analysis of the deposited data

Results flagged for a closer look

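Each difference below was singled out because a library moved one way in one enterocyte group and the opposite way in another. None was tested, since each genotype had 1 library. For Fabp6, the log2 ratio of LApcL to LApc was 0.11 in Tmigd1-led and -0.84 in Reg3g-led cells. The Slc10a2 ratio of LApc to WT was 0.65 in Gsdmc4-led cells, on 67 and 58 UMIs, and -0.39 over the ileal groups. For Slc51b, LApcL over LApc was 0.29 in Lct-led cells and -0.62 over the ileal groups. The Fgf15 ratio of LApcL to WT was 2.03 in Lct-led cells and 3.02 in Gsdmc4-led cells, against -0.67 over the ileal groups.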

How the results depend on the processing

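No paired analysis was possible because each genotype had 1 library. Fabp6 was lower than WT in both mutant libraries under all settings run. The values below are log2 ratios for Fabp6 in the order LApc over WT (-1.52 as reported), LApcL over WT (-2.0) and LApcL over LApc (-0.48). They were -1.53, -2.19 and -0.66 with Gsdmc4-led cells added, -1.34, -2.18 and -0.84 in Reg3g-led cells alone, -1.88, -1.77 and 0.11 in Tmigd1-led cells alone, and -1.48, -2.16 and -0.69 after TMM scaling. At resolution 0.4 they were -1.74, -1.71 and 0.031, with doublets kept -1.56, -2.12 and -0.56, at a mitochondrial limit of 10% -1.41, -2.03 and -0.62, after thinning -1.46, -1.90 and -0.44, and with ribosomal, mitochondrial and member genes out of the total -1.56, -1.96 and -0.40. With cells chosen one by one by their distal-list UMIs, LApc over WT was -1.08 and LApcL over WT -1.56. The sign of LApcL over LApc thus depended on the choice of cells, and the cause was not tested.

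The ileal share of WT, LApc and LApcL enterocytes followed the definition of the ileal groups: 44.2%, 38.0% and 43.0% with Gsdmc4-led cells, 20.5%, 14.5% and 16.8% for Reg3g-led and 11.7%, 13.2% and 13.5% for Tmigd1-led cells alone, and 12.5%, 13.6% and 14.7% at resolution 0.4. By distal-list UMIs it was 31.2%, 15.9% and 19.1% of all enterocyte-like cells, so both mutant libraries lay further below WT than as reported. With cells of equal distal-list and proximal-list UMIs left out, it was 16.0% in LApc and 19.4% in LApcL. After thinning it was 25.1% in LApc. The members at least 2-fold lower in LApcL than in WT numbered 2 as reported, 4 in Reg3g-led cells alone and after TMM scaling, 3 with doublets kept and with Gsdmc4-led cells added, and 1 in Tmigd1-led cells alone, at resolution 0.4 and after thinning, and 1 was higher in Reg3g-led cells alone. By distal-list UMIs the count was also 2, but with Nr0b2 (-2.04) in place of Slc51b (-0.98). Against LApc, 1 was higher in Reg3g-led cells alone, at the 10% limit, by distal-list UMIs and after thinning, and 1 was lower by distal-list UMIs. Of genes with a mean of at least 10 CPM, 1.33% were lower in LApcL than in WT as reported. The share was 2.32% in Reg3g-led and 2.55% in Tmigd1-led cells alone. No such share was taken under the other settings, so their counts of members have no background beside them. Nr0b2, on few UMIs, changed sign for LApc over WT in Reg3g-led cells alone (0.47) and after thinning (0.58), and for LApcL over LApc by distal-list UMIs (-1.24). Of 180 log2 ratios of the members other than Fabp6, 166 had the sign of the reported value. The settings with Gsdmc4-led cells added and with either ileal group alone were chosen after seeing the data. Depth limits Nr0b2 in all groups and Fgf15 outside the ileal groups.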

Other observations

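Barcodes over the mitochondrial limit were left out of all results (62 in WT, 2342 in LApc and 413 in LApcL). Per 1000000 of their non-mitochondrial UMIs, these barcodes held Slc51a at 449, 352 and 231 CPM, against 155, 135 and 32.5 CPM in kept cells. Fabp6 was at 3155, 1562 and 526 CPM in them and at 5005, 2135 and 407 CPM in kept cells.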
